A study of Mus musculus with 27 samples.

Results

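The mitochondrial respiratory chain genes of the nuclear genome were followed across resting, stimulated and malignant mouse B cells. They were the protein-coding genes whose symbols start with Nduf followed by a, b, c, s or v, with Uqcr, with Cox followed by 4 to 8, or with Atp5, together with Sdha, Sdhb, Sdhc and Sdhd. This rule found 93 of the 30735 genes in the deposited table. They were 38 subunits of complex I, 8 complex I assembly factors (Ndufaf1 to Ndufaf8), 4 genes of complex II, 8 of complex III, 18 of complex IV and 17 of complex V. The rule also takes in a few genes that are not subunits: the assembly factors, Cox7a2l, which links complexes III and IV into supercomplexes, and Atp5s, known as coupling factor s. Ndufa4 is counted here with complex I by its name, although its protein is now placed in complex IV.

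The respiratory chain passes electrons from NADH (through complex I) and succinate (through complex II) to ubiquinone, then through complex III and cytochrome c to complex IV, which reduces oxygen. Complexes I, III and IV pump protons across the inner mitochondrial membrane, and complex V, the ATP synthase, uses the returning protons to make ATP. Most subunits are encoded in the nucleus and imported, and a small core of complexes I, III, IV and V is encoded by mitochondrial DNA. Several complex IV subunits and the c subunit of complex V exist as paralogues that are used in different tissues. B cells that leave rest to divide are known to enlarge their mitochondrial content.

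B220-purified B cells gave 27 RNA-seq samples, B220 being a surface protein of B cells. Of these, 4 were untreated B cells from the spleens of healthy mice, called resting here, and 4 were splenic B cells treated with lipopolysaccharide (LPS, a bacterial product and B-cell mitogen) for 2 days. Each of these groups held 1 sample of each genotype named wt, cr, co and hv, and the labels do not say what the names stand for. The other 19 were B-cell lymphomas, 7 hv, 7 cr, 4 co and 1 (T39) with labels that disagree between hv and co, taken from lung (12) or lymph nodes (7). All samples but the wt ones came from mice described as c-myc Igh transgenic, so the transgene is shared by 3 of 4 resting samples, 3 of 4 LPS samples and every lymphoma. No time is given for the untreated cells, so LPS and the days of treatment cannot be told apart, and all non-malignant cells were splenic, so malignancy and organ cannot be told apart either. The labels do not say whether samples of a group came from separate mice, and p-values then measure only the spread between these samples.

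The values are TPM, a relative transcript abundance that accounts for transcript length and sums to the same total in every library. The low TPM values implied a depth of 11500000 to 32000000 read pairs per library, with a median of 21500000. B-cell markers were present in every group, with 8 marker genes summing to 2669 to 4951 TPM in resting, 1048 to 2115 in LPS and 1306 to 3844 in lymphoma samples. Of these 8 genes, 7 were lower than at rest after LPS and 2 in lymphomas, against 33% and 17.4% of all genes tested. Markers of other cell types moved with rest. The 8 erythroid genes summed to 11700 to 111900 TPM in resting, 165 to 2214 in LPS and 16.6 to 1130 in lymphoma samples, and the 10 macrophage genes to 179 to 1038, 5.59 to 54.6 and 12.4 to 316 TPM. All 8 erythroid genes and 8 of 10 macrophage genes were lower after LPS and in lymphomas. Of the tested markers of T cells, platelets and neutrophils, 2 of 4, 3 of 4 and 2 of 2 were lower after LPS, and 2 of 7, 4 of 4 and 4 of 4 in lymphomas. Fibroblast genes went the other way in lymphomas: the 6 genes summed to 0.323 to 2.07 TPM at rest and 0.227 to 56.4 TPM in lymphomas, highest in hv T5, and 1 of 4 tested, the collagen gene Col3a1, was higher (log2 fold change 2.40 ± 0.84, limma adjusted p = 0.032). Col3a1 was under 1 TPM in every resting sample and entered this fit through the lymphomas alone. The part of these cell types in the results was not tested. A pair of predicted genes took large shares of the libraries, which lowers every other TPM value there. Gm20594 held 17.2 to 19.7% of resting, 10.9 to 16.3% of LPS and 13.7 to 34.3% of lymphoma libraries, the most in cr T35, which had the lowest complex I sum of the lymphomas (3356 TPM). Gm10800 held 18.6% of cr LPS, 3.65% of wt resting, 2.70% of hv LPS and at most 3.08% of any lymphoma.

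The 93 genes together took 0.834 to 0.928% of all TPM in resting samples, 1.38 to 2.06% after LPS and 1.16 to 2.10% in lymphomas. Their summed level was 8394 TPM in wt, 8809 in cr, 9276 in co and 8342 in hv resting cells. After LPS it was 20083 TPM in wt, 13805 in cr, 20626 in co and 19594 in hv cells. Every LPS sample lay above every resting sample, and cr LPS was the lowest of its group. The 19 lymphomas ran from 11574 TPM (hv T15) through a median of 15954 to 20953 (hv T8), and all 19 lay above the highest resting sample. The group means were 2.13 times the resting mean after LPS and 1.84 times in lymphomas. In these bulk samples a smaller share of cells of one type and less RNA per cell cannot be told apart.

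Each complex followed the same order. The mean sum of the 38 complex I subunits was 2416 ± 135 TPM (SD, n = 4) at rest, 4988 ± 808 (n = 4) after LPS and 4478 ± 728 (n = 19) in lymphomas. Complex V, the ATP synthase, went from 2841 ± 215 TPM to 6534 ± 1205 and 5440 ± 978, the largest of the 6 ratios to rest in both states (2.30 and 1.92 times). Complexes II, III and IV were 2.15, 2.09 and 2.00 times the resting mean after LPS, and 1.86, 1.695 and 1.79 times in lymphomas. The complex I assembly factors were 1.98 times the resting mean after LPS and 1.48 times in lymphomas, where 18 of 19 samples exceeded the highest resting sample. For each complex proper, all 19 did.

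**Figure D1:**
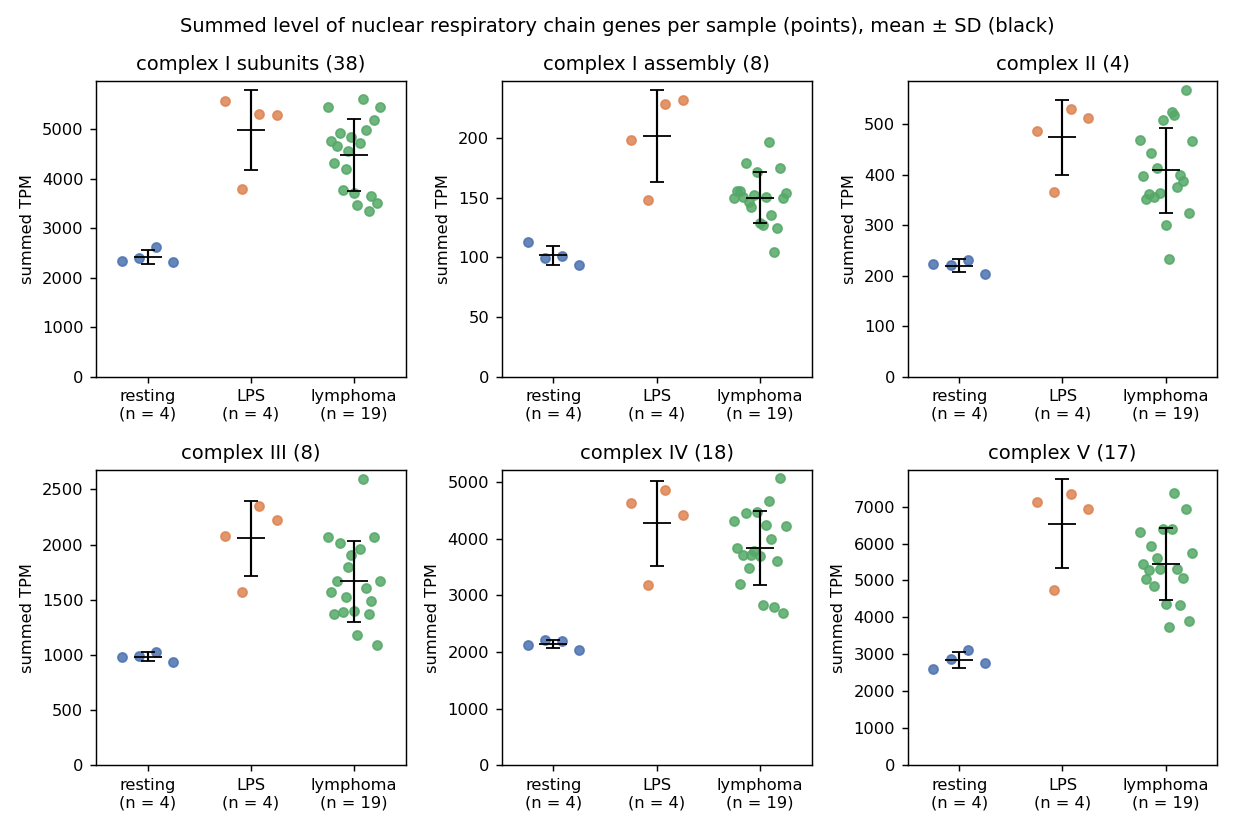
Summed TPM of the genes of each complex (y axis, linear from 0) in every sample, by group on the x axis; points are samples, the black bar is the mean and its whiskers are the SD. Resting samples lie together at the bottom of each panel, and 1 LPS sample, cr, lies below the other 3 in every panel.

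The most abundant member in all 3 groups was Atp5b, the catalytic beta subunit of ATP synthase, at 451 ± 70.3 TPM at rest, 1165 ± 231 after LPS and 934 ± 191 in lymphomas. Cox4i1, the ubiquitous isoform of complex IV subunit 4, was among the 4 most abundant members in each group. Assembly factors were the least abundant class, with a median over genes of 12.5 TPM at rest, 27.3 after LPS and 17.4 in lymphomas, against 54.7, 119 and 104 for complex I subunits. At the bottom, the tissue-restricted isoforms Cox8b and Cox8c were at 0 TPM in all 27 samples, and Cox7b2 and Ndufa4l2 never exceeded 0.440 and 0.379 TPM. Cox4i2, the hypoxia-linked isoform of Cox4i1, reached 4.69 TPM in the lymphoma cr T14. These 5 genes were too low to be tested in any comparison of the groups, and Cox6a2 was too low in non-malignant cells.

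LPS-treated cells were first compared with resting cells. Of 87 members tested, 77 were higher after LPS and 2 were lower (limma on log2(TPM + 1), Benjamini-Hochberg adjusted p under 0.05 over all genes tested). Over all 11999 genes tested, 25.2% were called higher and 33% lower. The median log2 fold change was 1.06 for the members and -0.16 for all genes tested. The LPS and resting samples did not overlap for 74 of the 87 members with higher LPS values, against 22.8% of all genes, and for 1 with lower values, against 29.5%. Scaling by median of ratios put 53.9% of all calls on the higher side and rescaling without dominant genes 36.2%, against 43.4% here. That rescaling left out Gm20594, Gm10800 and all haemoglobin, mitochondrially encoded and immunoglobulin genes. By complex, 35 of 37 tested complex I subunits were higher, 7 of 8 assembly factors, 3 of 4 complex II genes, 7 of 8 in complex III, 11 of 13 in complex IV and 14 of 17 in complex V.

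Within complex I, all 7 core subunits of the hydrophilic arm, which carry the flavin and iron-sulphur clusters, were higher, with log2 fold changes of 0.68 to 1.07. Of 30 tested accessory subunits, 28 were higher, with a wider range of -0.05 to 1.93. The accessory subunit Ndufa12 (ENSMUSG00000020022) measured 54.2, 73.6, 64.9 and 55.8 TPM in wt, cr, co and hv resting cells and 257, 183, 253 and 265 TPM after LPS. No LPS value came near a resting one, and cr was again the lowest of the LPS samples (log2 fold change 1.93 ± 0.18 SE, limma adjusted p = 5.0e-06). Ndufb6, an accessory subunit of the membrane arm, rose by 1.85 ± 0.19 (limma adjusted p = 9.6e-06). The exceptions were Ndufa6, at 127 to 153 TPM at rest and 104 to 156 after LPS, and Ndufb11, at 68.0 to 80.5 and 67.9 to 105 TPM. Both sets of values overlapped, and neither gene passed the test (limma adjusted p = 0.807 and 0.231).

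Among assembly factors, Ndufaf2, which acts late in complex I assembly, was at 8.71, 7.67, 8.25 and 6.09 TPM in wt, cr, co and hv resting cells and at 26.3, 21.8, 33.8 and 35.6 TPM after LPS. The groups were clearly apart (log2 fold change 1.79 ± 0.20, limma adjusted p = 1.3e-05). Ndufaf4 and Ndufaf6 rose by 1.51 ± 0.21 and 1.47 ± 0.17 (limma adjusted p = 7.3e-05 and 2.2e-05). Ndufaf3 did not pass the test, at 10.9 to 22.4 TPM at rest and 7.68 to 17.7 TPM after LPS (limma adjusted p = 0.228).

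Complex II consists of the catalytic subunits Sdha (a flavoprotein) and Sdhb (an iron-sulphur protein) and the membrane anchors Sdhc and Sdhd, and its 4 genes did not move as a block. Sdhd measured 48.8, 59.2, 51.5 and 49.1 TPM in wt, cr, co and hv resting cells and 164, 139, 221 and 202 TPM after LPS. All LPS values were above all resting values, with a log2 fold change of 1.76 ± 0.19 (limma adjusted p = 9.4e-06), and Sdhb and Sdhc rose by 1.17 ± 0.16 and 0.92 ± 0.19 (limma adjusted p = 7.0e-05 and 0.0011). Sdha measured 92.1, 69.96, 85.3 and 65.9 TPM at rest and 114, 69.2, 102 and 103 TPM after LPS. The cr LPS value of Sdha lay inside the resting range, and its difference of 0.29 ± 0.20 did not pass the test (limma adjusted p = 0.221). The Sdha to Sdhb ratio within each sample, which no scaling of a library can alter, was 1.06 to 1.48 at rest and 0.587 to 0.750 after LPS. The difference was -0.884 on the log2 scale, without overlap (exact two-sided permutation p = 0.0286, the smallest that 4 against 4 samples allow; adjusted p = 0.0384 over 15 ratio tests).

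In complex III, the small subunits Uqcr10 and Uqcr11 rose the most. Uqcr10 was at 120 to 139 TPM in the 4 resting samples and at 446, 323, 521 and 469 TPM in wt, cr, co and hv LPS cells (log2 fold change 1.75 ± 0.19, limma adjusted p = 1.0e-05). The core protein gene Uqcrc2 rose by 0.85 ± 0.19 (limma adjusted p = 0.0021). Uqcrh, the hinge protein that contacts cytochrome c1, was the second most abundant member at rest, at 335 to 403 TPM, and its cr LPS value of 348 TPM lay in that range (log2 fold change 0.24 ± 0.18, limma adjusted p = 0.265).

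Complex IV held both the largest rise and the only members called lower. Cox7a1, the isoform of subunit 7a known from heart and skeletal muscle, was at 0.572, 0.504, 1.19 and 0.449 TPM in wt, cr, co and hv resting cells and at 22.7, 7.52, 10.8 and 5.77 TPM after LPS. The lowest LPS value was several times the highest resting value, and the wt LPS sample stood above the other 3 (log2 fold change 2.77 ± 0.35, limma adjusted p = 6.1e-05). The LPS values alone took Cox7a1 over the filter of 1 TPM in at least 4 samples. Its entry and its test thus rest on the same values. Its common counterpart Cox7a2, at 88.5 to 113 TPM at rest and 158 to 280 TPM after LPS, rose by 1.19 ± 0.21 (limma adjusted p = 0.00037), so Cox7a1 made up 0.398 to 1.04% of the pair at rest and 2.37 to 7.96% after LPS. Of 10 marker genes of striated muscle and brown fat, where Cox7a1 is abundant, 9 stayed under 1 TPM in every resting sample and 8 in every LPS sample, and the 10 summed to 3.32 to 8.98 TPM at rest and 0.477 to 2.42 TPM after LPS. The marker above 1 TPM at rest was Tnnt3, a troponin of skeletal muscle, which fell from 5.31 ± 2.13 to 0.772 ± 0.633 TPM (log2 fold change -1.83 ± 0.30, limma adjusted p = 0.00024). The part of such transcripts in the Cox7a1 levels was not tested.

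Cox7a2l, the supercomplex factor, went the other way. It measured 303, 264, 286 and 237 TPM in wt, cr, co and hv resting cells and 228, 148, 205 and 192 TPM after LPS. Every LPS value was below every resting value, but by a small step (log2 fold change -0.51 ± 0.18, limma adjusted p = 0.032). The call was lost under 10 of 19 alternatives, among them median-of-ratios scaling, where the difference was -0.30 (limma adjusted p = 0.113, in a range of 0.00048 to 0.265 over the alternatives), and leaving out co LPS, hv LPS, wt resting, cr resting or co resting in turn. The ratio of Cox7a2l to Cox7a2 in the same library was 2.11 to 3.42 at rest and 0.732 to 0.934 after LPS, with no overlap (exact permutation p = 0.0286, adjusted p = 0.0384). Most of that difference of -1.7 on the log2 scale came from the rise of Cox7a2 by 1.19, so the ratio is no test of Cox7a2l itself. The second gene called lower, the testis-linked isoform Cox6b2, was low throughout, at 0.754 to 4.01 TPM at rest and 0.366 to 1.65 TPM after LPS. Its values overlapped, and its call (log2 fold change -0.83 ± 0.33, limma adjusted p = 0.046) was lost when any sample but cr LPS or wt resting was left out (limma adjusted p = 0.057 to 0.123).

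In complex V, the 3 genes of the c subunit, which forms the rotating ring of the enzyme, encode the same mature protein with different targeting sequences. All 3 rose, by unequal amounts. Atp5g1 (ENSMUSG00000006057) was at 75.7, 92.1, 103 and 82.7 TPM in wt, cr, co and hv resting cells and at 451, 309, 480 and 476 TPM after LPS. It rose by 2.25 ± 0.19, the most of any member with more than 5 TPM at rest (limma adjusted p = 2.5e-06). Atp5g3 rose by 1.66 ± 0.18 and Atp5g2 by 0.82 ± 0.18 (limma adjusted p = 1.3e-05 and 0.0020). Atp5g2 supplied 39.9 to 46.5% of the summed c-subunit TPM at rest, the largest part in each sample, and 22.5 to 26.9% after LPS. Atp5g1 supplied 23.2 to 28.4% at rest and 40.2 to 42.4% after LPS, again the largest part in each sample. Neither share overlapped between the groups (exact permutation p = 0.0286 and adjusted p = 0.0384 for each), and cr LPS, whose TPM were low, was at 25.96% for Atp5g2 and 40.2% for Atp5g1, close to the other LPS samples.

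Of the other parts of the ATP synthase, 4 of 5 genes of the F1 head, all 4 of the peripheral stalk and 3 of 4 further membrane subunits were higher after LPS. Atp5k, a membrane subunit that supports dimers of the enzyme, was at 154 to 162 TPM at rest and 337 to 628 TPM after LPS (log2 fold change 1.61 ± 0.20, limma adjusted p = 3.0e-05). The genes that missed the threshold were Atp5e, the small epsilon subunit of the head, Atp5l and Atp5s. Atp5e measured 276 to 382 TPM at rest and 253 to 528 TPM after LPS, with cr LPS the lowest of all 8 (log2 fold change 0.36 ± 0.23, limma adjusted p = 0.196). Atp5s, at 2.96 to 4.17 and 1.84 to 3.44 TPM, was the lowest member of its class.

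The 3 c-subunit genes and 2 genes of complex IV with opposite changes are shown by the 250 bases before their start sites, from RefSeq on GRCm38.p6, as examples of related genes that changed unequally. Cox6b1 and Cox6b2, with log2 fold changes of 1.26 and -0.83 after LPS, differed by more than the c-subunit genes did and are not shown. Letters run 5′ to 3′ on the gene's strand, and capitals mark matches to the motifs searched. The windows are chr11:96075632-96075881 (minus strand, Atp5g1), chr15:102671048-102671297 (minus strand, Atp5g2), chr2:73911327-73911576 (minus strand, Atp5g3), chr7:30183921-30184170 (plus strand, Cox7a1) and chr17:83514334-83514583 (minus strand, Cox7a2l). The Atp5g2 window lies inside the span that the deposited table gives this gene, which runs further upstream.
Atp5g1: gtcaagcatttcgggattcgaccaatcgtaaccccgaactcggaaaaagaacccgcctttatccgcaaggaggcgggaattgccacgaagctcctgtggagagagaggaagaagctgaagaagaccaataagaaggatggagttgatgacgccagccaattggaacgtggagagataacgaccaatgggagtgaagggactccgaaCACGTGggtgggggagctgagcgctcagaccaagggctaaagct
Atp5g2: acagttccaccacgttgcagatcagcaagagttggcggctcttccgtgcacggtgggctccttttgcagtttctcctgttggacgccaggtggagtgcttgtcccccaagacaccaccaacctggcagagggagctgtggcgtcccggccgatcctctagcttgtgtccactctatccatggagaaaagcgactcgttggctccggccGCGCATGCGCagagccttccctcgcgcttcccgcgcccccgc
Atp5g3: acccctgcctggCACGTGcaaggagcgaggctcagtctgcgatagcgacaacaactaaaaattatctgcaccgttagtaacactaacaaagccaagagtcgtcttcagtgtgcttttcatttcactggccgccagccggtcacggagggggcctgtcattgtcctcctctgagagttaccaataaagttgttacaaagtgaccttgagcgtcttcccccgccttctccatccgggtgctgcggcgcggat
Cox7a1: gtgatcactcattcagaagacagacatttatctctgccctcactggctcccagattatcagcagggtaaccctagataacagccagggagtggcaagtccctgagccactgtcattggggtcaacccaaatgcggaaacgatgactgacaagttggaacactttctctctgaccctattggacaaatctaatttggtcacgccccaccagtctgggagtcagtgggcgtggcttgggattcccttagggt
Cox7a2l: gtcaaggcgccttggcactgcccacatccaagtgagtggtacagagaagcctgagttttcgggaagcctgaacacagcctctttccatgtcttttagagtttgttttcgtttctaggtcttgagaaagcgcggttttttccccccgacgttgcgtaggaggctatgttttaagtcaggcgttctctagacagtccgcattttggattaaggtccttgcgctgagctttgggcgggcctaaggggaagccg
Atp5g1 holds the E-box letters CACGTG at 44 bases before its start, Atp5g3 holds them at 238 bases, and Atp5g2 holds GCGCATGC, a core of the NRF1 site, read on both strands in an overlapping pair that begins 42 bases before the start. No letters of the 4 motifs occur in the Cox7a1 and Cox7a2l windows, which says nothing about the factors.

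Over the whole set, 76 of 93 members matched a RefSeq promoter window of 300 bases (250 before to 50 after the start). Each motif was searched on both strands. The NRF1 core GCGCATGC was in a window of 15.8% of the 76 matched members and in 2.71% of all 32851 windows. The YY1 core AAGATGGC was in 14.5% and 2.75%. The ETS core CCGGAAG was in 23.7% against 8.86%, and the E-box CACGTG in 7.90% against 7.15%. Members were counted by gene, with a match in any window of the gene, and all windows were counted singly. Both shares of a motif are thus in unlike units and do not measure enrichment. Members with and without each motif had like median changes after LPS, from 1.06 to 1.2 in every set (for the E-box, 1.09 over 6 genes with it and 1.07 over 68 without). These matches are descriptions of letters, not of bound sites. Members with no entry included Atp5a1, Atp5mpl, Cox4i1, Cox4i2, Cox6a2, Cox6c, Cox8c, Ndufa2, Ndufa4l2, Ndufaf6, Ndufb9, Ndufs1, Sdhc, Uqcrb, Uqcrc2 and Uqcrq.

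**Figure D2:**
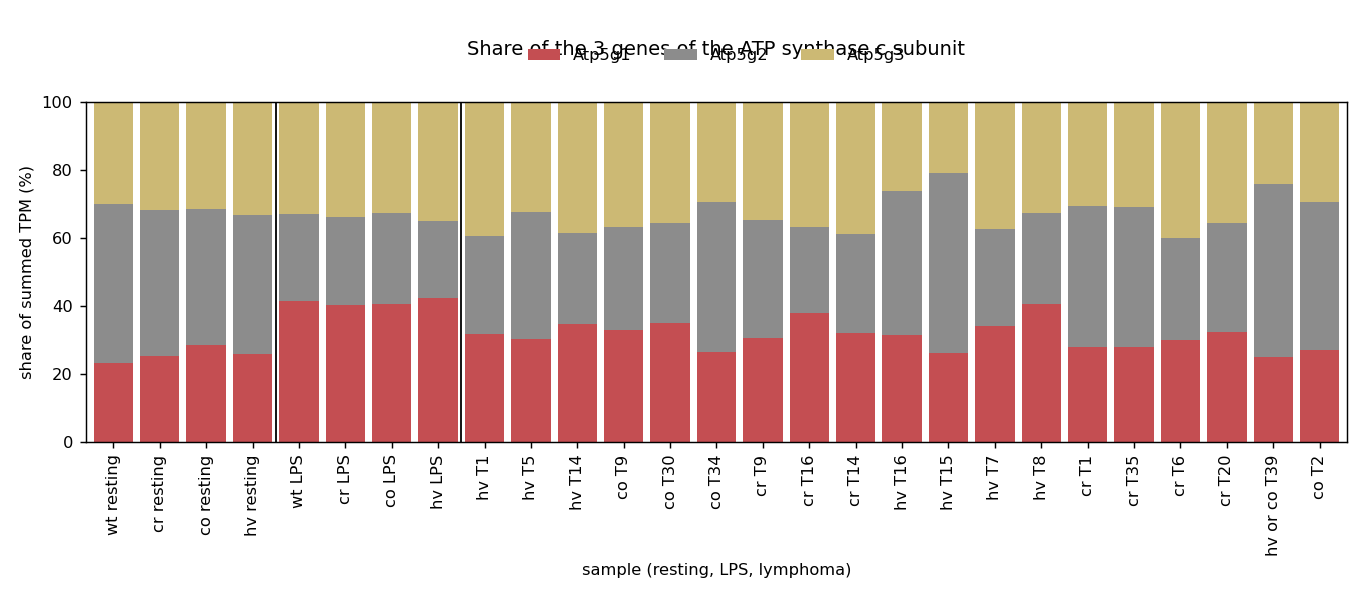
Share of the summed TPM of Atp5g1, Atp5g2 and Atp5g3 (y axis, percent) in each of the 27 samples (x axis), with vertical lines between resting, LPS and lymphoma samples. The Atp5g1 share is 23.2 to 28.4% in resting, 40.2 to 42.4% in LPS and 25.0 to 40.4% in lymphoma samples.

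Lymphomas were compared with the same 4 resting samples, so this comparison and the one above share their controls and are not independent. Of 88 members tested, 68 were higher in lymphomas and 1, Cox6b2, was lower. Among all 13239 genes tested, 14.5% were called higher and 17.4% lower. The median log2 fold change of the members was 0.83, against -0.06 for all genes. All 19 lymphomas lay above all resting samples for 38 of the 88 members, against 4% of all genes, and no member lay wholly below them, against 4.92%. Of all calls, 45.4% were on the higher side, and 34.3% after rescaling without dominant genes. Complex I subunits were higher in 33 of 37 cases, assembly factors in 4 of 8, complex II genes in 3 of 4, complex III in 6 of 8, complex IV in 9 of 14 and complex V in 13 of 17. The labels write the lymphomas' names in 2 styles, with joined (9 samples) or separated (10) elements, which may or may not mark batches, and all 7 node lymphomas have separated names. With joined names alone 70 members were higher, and with separated names alone 52. The share of 14.5% belongs to the fit of all 19 lymphomas. These counts thus stand without a share over all genes and do not compare the styles.

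**Figure D3:**
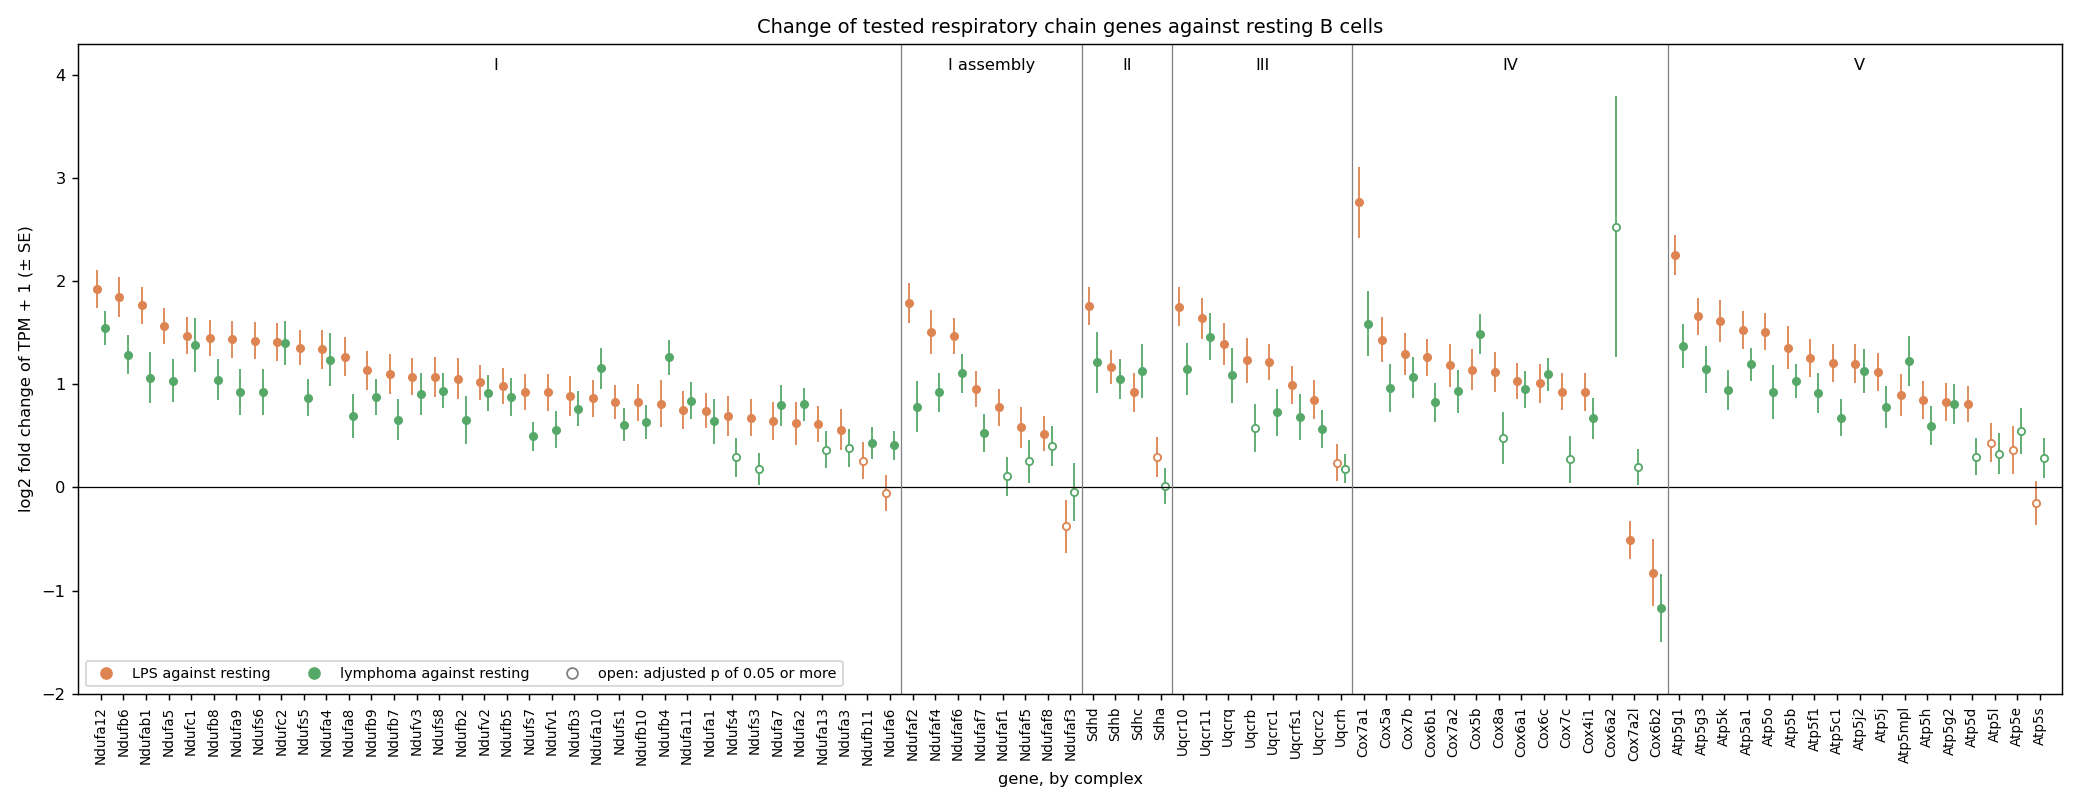
Log2 fold change of TPM + 1 (y axis, ± SE) of 87 tested members (x axis, grouped by complex) after LPS (orange) and in lymphomas (green), both against the same 4 resting samples; open circles did not pass the test. Most members lie between 0.5 and 2, and Cox7a2l and Cox6b2 are the filled points below 0.

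Ndufa12 was again prominent, with lymphoma values of 117 to 269 TPM and a median of 183, all above its highest resting value of 73.6 TPM (log2 fold change 1.55 ± 0.17, limma adjusted p = 1.2e-07). Ndufc2, a membrane-arm subunit, rose by 1.40 ± 0.21 (limma adjusted p = 2.1e-05). Ndufs3, a core subunit that had risen after LPS, measured 66.5 to 82.7 TPM at rest and 59.0 to 120 TPM in lymphomas with a median of 84.1, and did not pass the test (log2 fold change 0.18 ± 0.16, limma adjusted p = 0.392). Ndufa6, which had overlapped in the LPS comparison, was at 133 to 272 TPM in lymphomas with a median of 188 and rose by 0.41 ± 0.14 (limma adjusted p = 0.027), a call lost when the wt, cr or hv resting sample was left out (limma adjusted p = 0.055, 0.103 and 0.083). Among assembly factors, Ndufaf6 rose by 1.11 ± 0.19 (limma adjusted p = 8.1e-05), while Ndufaf1, at 15.01 to 18.7 TPM at rest and 10.3 to 29.2 TPM in lymphomas, did not pass the test.

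Complex II kept its split. Sdhb measured 62.0 to 64.8 TPM at rest and 76.0 to 186 TPM in lymphomas with a median of 145, without overlap (log2 fold change 1.05 ± 0.19, limma adjusted p = 0.00019). Sdhc and Sdhd rose by 1.13 ± 0.26 and 1.21 ± 0.29 (limma adjusted p = 0.0018 and 0.0027), although 1 lymphoma in each case lay below the resting samples. Sdha, the flavoprotein, was at 51.7 to 110 TPM in lymphomas with a median of 77.7, against 65.9 to 92.1 TPM at rest, and the estimate was 0.02 ± 0.18 (limma adjusted p = 0.954). The Sdha to Sdhb ratio was 0.279 to 1.42 in lymphomas and differed from rest by -1.05 on the log2 scale (exact permutation p = 0.0016, adjusted p = 0.0059). The highest ratio was in T39, inside the resting range.

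In complex III, Uqcr11 rose by 1.46 ± 0.23 and Uqcr10 by 1.15 ± 0.25 (limma adjusted p = 2.4e-05 and 0.0011), while Uqcrh was at 293 to 524 TPM with a median of 415 and did not pass the test (limma adjusted p = 0.333). In complex IV, Cox5b, a zinc-binding subunit on the matrix side, was at 131 to 165 TPM at rest and 232 to 656 TPM in lymphomas with a median of 437. No lymphoma reached down to the resting values (log2 fold change 1.49 ± 0.20, limma adjusted p = 2.9e-06). Cox5a, another subunit on the matrix side, rose by 0.96 ± 0.23 (limma adjusted p = 0.0028), and the Cox5b to Cox5a ratio was 1.29 to 3.28 in lymphomas, 1.30 to 1.98 at rest and 1.25 to 1.47 after LPS. That ratio was higher in lymphomas than at rest by 0.524 and than after LPS by 0.822 on the log2 scale (exact permutation p = 0.013 and 0.00068, adjusted p = 0.029 and 0.0051).

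Cox7a1 was at 1.16 to 10.2 TPM in lymphomas with a median of 4.19, and rose against rest by 1.59 ± 0.31 (limma adjusted p = 0.00037). The lowest lymphoma, cr T1, fell within the resting range. Here the lymphoma values alone took Cox7a1 over the filter of 1 TPM in at least 4 samples. Cox6b2 was at 0 to 3.01 TPM with a median of 0.379 (log2 fold change -1.17 ± 0.33, limma adjusted p = 0.0085), a difference between low levels. That call was lost without the hv resting sample (limma adjusted p = 0.058) and with the joined sample names alone, where its adjusted p lay just above the threshold. Cox7a2l, lower after LPS, was at 196 to 498 TPM in lymphomas with a median of 293 and did not differ from rest by the test (log2 fold change 0.20 ± 0.17, limma adjusted p = 0.401).

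In complex V, Atp5g1 rose by 1.37 ± 0.22 and Atp5mpl, a small membrane subunit, by 1.23 ± 0.24 (limma adjusted p = 3.3e-05 and 0.00042). Atp5g1 was at 126 to 456 TPM in lymphomas with a median of 221, all above the highest resting value of 103 TPM. The Atp5g1 share of the c subunit was higher than at rest by 5.55 percentage points (exact permutation p = 0.0077, adjusted p = 0.019), but the ranges overlapped. Atp5d, the delta subunit of the F1 head, Atp5e, Atp5l and Atp5s did not pass the test.

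Cox6a2 had the largest spread of all members, with an SD over lymphomas of 2.66 on the log2(TPM + 1) scale. The next 2 members by this measure with a mean of at least 5 TPM, Sdhd and Ndufaf3, had SDs of 0.60 and 0.54. Cox6a2 encodes the isoform of subunit 6a found in heart and skeletal muscle. It was at 0.111, 0.0976, 0.185 and 0.435 TPM in wt, cr, co and hv resting cells and at 2.93, 1.41, 0.807 and 0.969 TPM after LPS. Among lymphomas it ran from 0 TPM in co T9 through a median of 2.26 to 304 TPM in cr T20, and it was at 135 in hv T7, 98.7 in hv T5, 38.01 in cr T6, 37.8 in cr T35, 35.6 in cr T14 and 10.8 in hv T1. These 7 lymphomas, 3 hv and 4 cr, were at or above 10 TPM, while the other 12, among them all 4 co, were at 3.18 TPM or less.

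In cr T20, Cox6a2 supplied 40.7% of the summed Cox6a1 and Cox6a2 TPM, and in hv T7 and hv T5 28.5 and 22.6%. The median over lymphomas was 0.691%, and no resting or LPS sample exceeded 0.795%. As a group, the lymphomas did not differ from rest by the test (log2 fold change 2.53 ± 1.27, limma adjusted p = 0.129). Of the 10 muscle and brown fat markers, 8 stayed under 1 TPM in every lymphoma, among them Acta1, Actc1, Myh6, Myh4, Mb and Ucp1. Tnnt3 and Ckm reached 1 TPM in at least 1 lymphoma. The 10 summed to 1.30 to 13.01 TPM, with a median of 5.14, and in the 7 lymphomas above to 5.35 in cr T20, 5.34 in hv T7, 5.92 in hv T5, 13.01 in cr T6, 10.3 in cr T35, 4.47 in cr T14 and 2.61 TPM in hv T1. The highest sum was thus in a lymphoma with raised Cox6a2, and cr T16 and T39, with sums of 12.6 and 12.1 TPM, had Cox6a2 at 2.94 and 1.44 TPM. Most of each sum was Tnnt3, which was higher in lymphomas than after LPS (5.20 ± 3.38 against 0.772 ± 0.633 TPM, log2 fold change 1.69 ± 0.38, limma adjusted p = 0.0036). The part of muscle transcripts in the Cox6a2 levels was not tested. Cox6a2 lies on the minus strand of chromosome 7 (128205436 to 128206366, GRCm38) inside Itgad (128154376 to 128223816, plus strand), an integrin gene of macrophages. No label states whether the counting used strand, so reads of these genes may be shared. Itgad was at 5.09 to 35.04 TPM in resting cells, where Cox6a2 was under 1 TPM, at 0.154 to 0.326 TPM after LPS and at 0.0831 to 10.55 TPM in lymphomas. In the 7 lymphomas with Cox6a2 at or above 10 TPM, Itgad was at 5.11 in cr T20, 10.55 in hv T7, 1.34 in hv T5, 4.29 in cr T6, 2.22 in cr T35, 6.19 in cr T14 and 0.645 TPM in hv T1. In the other lymphomas Itgad was at 3.28 TPM in hv T8 and otherwise ran from 0.0831 in co T9 to 1.21 TPM in hv T15. Itgad was thus mostly higher where Cox6a2 was raised, and the part of shared reads was not tested.

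**Figure D4:**
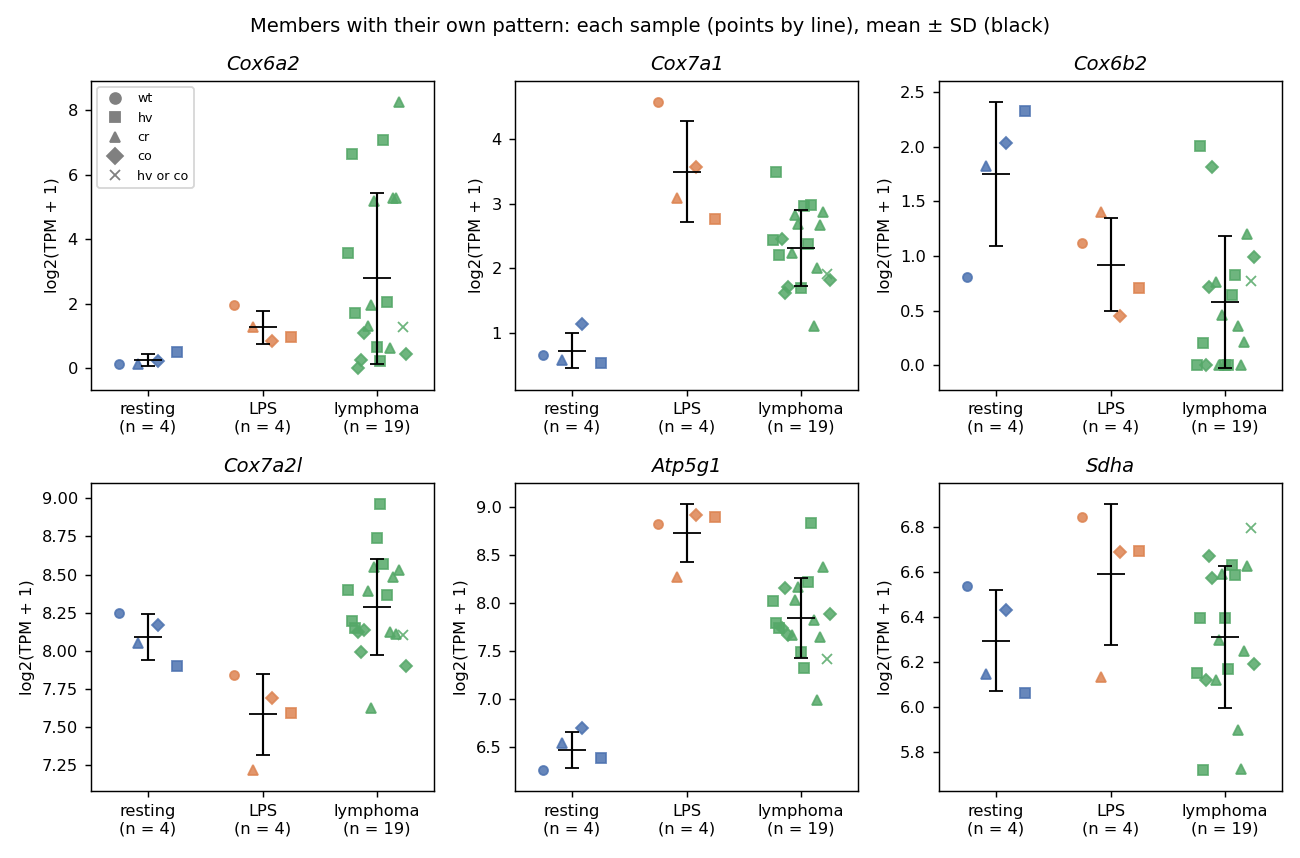
Level of 6 members on the log2(TPM + 1) scale (y axis, with a range of its own in each panel) in resting, LPS and lymphoma samples; marker shapes give the line, black bars the mean and whiskers the SD. Cox6a2 spreads from 0 to above 8 among lymphomas, Cox7a2l is lowest after LPS, and Sdha overlaps in all 3 groups.

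The direct comparison of lymphomas with LPS-treated cells called few members. Of 88 tested, 2 were higher in lymphomas and 7 lower, against 5.27% and 8.56% of the 12880 genes tested. In both directions 9 of 88 members were called, against a background of 13.8%. At an unadjusted limma p under 0.05 there were 32 of the 88 members, and 3615 of the 12880 genes tested. The median log2 fold change was -0.28 for members and 0.03 for all genes, and no member was without overlap between the groups, against 1.29% of all genes with higher and 2.05% with lower lymphoma values. Of all calls, 38.1% were on the higher side, and 21.5% without the libraries above 1% Gm10800. The 2 higher members were Cox7a2l (0.70 ± 0.18, limma adjusted p = 0.0098) and Ndufa6 (0.46 ± 0.15, limma adjusted p = 0.035). The 7 lower members were Cox7a1 (-1.18 ± 0.34, limma adjusted p = 0.021), Ndufaf2 (-1.01 ± 0.25, limma adjusted p = 0.0086), Atp5g1 (-0.88 ± 0.22, limma adjusted p = 0.0085), Atp5k, Ndufaf1, Ndufs3 and Ndufs7, the last 4 with log2 fold changes of -0.67 to -0.43. These calls turned on single libraries: 4 members were called without wt LPS, 1 without co LPS and 2 without hv LPS, all among the 9 named, while without cr LPS 10 were lower and neither Cox7a2l nor Ndufa6 was higher. Calls over all genes also fell without wt, co or hv LPS, as given in the last section, so the drop was not limited to the members. Without the 3 libraries above 1% Gm10800 (cr LPS, hv LPS and cr T6), an alternative chosen after seeing the data, 1 member, Cox7a1, was called.

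Within the c subunit, the lymphomas' mean Atp5g1 share lay between those of rest and LPS. It was 31.2% ± 4.04 (SD, n = 19), against 41.1% ± 0.972 (n = 4) after LPS, a difference of -9.90 percentage points (exact permutation p = 0.00045, adjusted p = 0.0051). Only hv T8, at 40.4%, reached the LPS range. The Atp5g2 share was higher than after LPS by 10.3 points (exact permutation p = 0.0020, adjusted p = 0.0061), but its difference from rest of -7.02 points did not pass the test (exact permutation p = 0.125, adjusted p = 0.145). It was 52.9% in hv T15 and 50.7% in T39, above every resting sample. The ratio of Cox7a2l to Cox7a2 averaged 1.77 ± 0.851 in lymphomas, 0.835 ± 0.0865 after LPS and 2.75 ± 0.561 at rest (lymphoma against LPS 0.958 on the log2 scale, exact permutation p = 0.0011, adjusted p = 0.0057).

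Lines and sites were compared among the 18 lymphomas with 1 line label. No member of 87 tested was called between hv and cr, between co and the other lines, or between nodes and lung (limma, all genes: 0%, 0% and 0.016% called, the last 0.00801% in each direction). At an unadjusted limma p under 0.05 there were 1140, 574 and 720 of the 12480 genes tested, and of the 87 members 0, 2 and 1. These were Cox6a2, lower in co than in hv and cr (-3.14 ± 1.34 on the log2 scale, unadjusted limma p = 0.032, adjusted p = 0.9998), Ndufaf2, higher in co by 0.63 ± 0.25 (unadjusted limma p = 0.022, adjusted p = 0.9998), and Ndufa1, lower in nodes (-0.40 ± 0.18, unadjusted limma p = 0.042, adjusted p = 0.852). The summed level of all members was 16212 ± 3257 TPM (SD, n = 7) in hv and 16130 ± 2499 (n = 7) in cr lymphomas, and values from hv T15 to hv T8 spanned the range of every other line.

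Among lymphomas, Sdhd, Sdhc and Atp5o each lay far below the rest in a single tumour. Sdhd was at 36.1 TPM in hv T15, while the other 18 lymphomas were at 78.7 to 224 TPM. Sdhc was at 17.7 TPM in hv T16 and at 43.1 to 91.6 TPM in the others. Atp5o, a peripheral-stalk subunit, was at 77.5 TPM in T39 and at 138 to 372 TPM elsewhere. Each of these 3 values was also below the lowest resting sample of the same gene. For Ndufab1 and Ndufaf3 the lowest tumour stood closer to the next. Ndufab1, the acyl carrier protein of mitochondria, was at 49.4 TPM in cr T6 and 60.7 to 157 TPM in the others, and Ndufaf3 was at 5.21 TPM in cr T1 and 7.03 to 31.1 TPM in the others.

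For these 5 cases, chosen after seeing the values, protein-coding genes within 300 kb were set against the median of the other 18 lymphomas. Around Ndufab1 in cr T6, all 8 neighbours with a mean of at least 5 TPM were at 0.329 to 0.618 times that median, 7 of them under 0.6 times, against 16.2% of all 8806 such genes in this tumour. Around Sdhc in hv T16, 9 of 17 neighbours were under 0.6 times, against 10.2% of all genes there. Around Sdhd in hv T15 4 of 10 neighbours were under 0.6 times, against 14.8%, among them Timm8b (0.390 times), an import gene, and Dlat (0.415 times), a subunit of pyruvate dehydrogenase. Around Atp5o in T39 and Ndufaf3 in cr T1 the counts were 5 of 11 and 4 of 16, against 9.54 and 23.2% of all genes. Neighbours in a window are not independent of each other, and the cause of the low values was not tested.

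**Figure D5:**
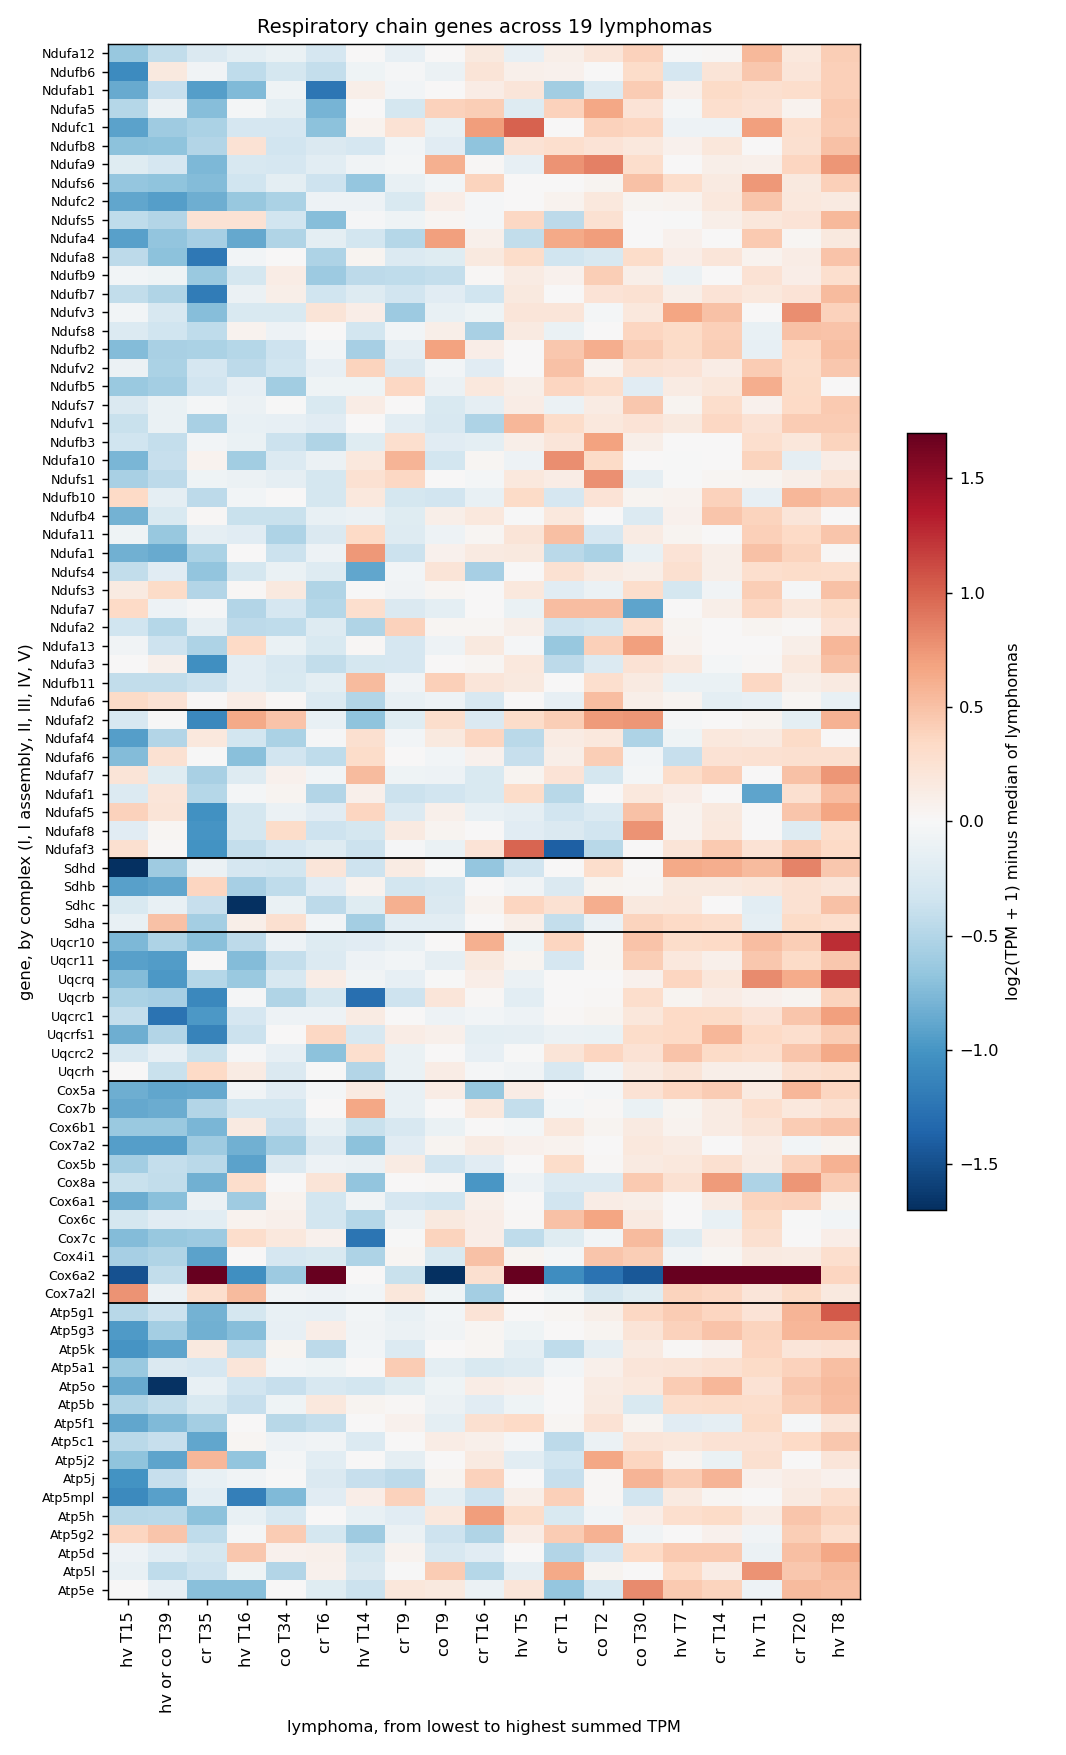
Deviation of 84 members with a mean of at least 5 TPM (rows, by complex) from each member's median over the 19 lymphomas on the log2(TPM + 1) scale (colour, saturated at 1.7), with lymphomas as columns ordered by their summed level. By the ordering, most rows pass from blue at the left (hv T15) to red at the right (hv T8); Cox6a2 departs from this order, Cox7a2l is highest in hv T15, and single dark blue cells mark Sdhd in hv T15, Sdhc in hv T16 and Atp5o in T39.

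Other mitochondrial gene groups were counted for comparison. The counts here and in the next paragraphs stand beside these shares of all genes tested. After LPS 25.2% were higher and 33% lower, and in lymphomas against rest 14.5% and 17.4%. In lymphomas against LPS the shares were 5.27% and 8.56%. Of 77 mitochondrial ribosomal protein genes, 74 were higher after LPS (median log2 fold change 1.30) and 58 in lymphomas (0.78), none was lower in either, and 31 were lower in lymphomas than after LPS (-0.50). Of 28 genes of protein import and the inner membrane, 27 were higher and 1, Ucp2, lower after LPS (1.40), 24 were higher in lymphomas (0.85), and 8 were lower and Ucp2 higher in lymphomas than after LPS. The import gene Tomm5 rose from 61.5 ± 12.9 to 313 ± 91.6 TPM after LPS (log2 fold change 2.30 ± 0.24, limma adjusted p = 8.3e-06). Of 18 genes of the citric acid cycle, 16 were higher after LPS, 12 in lymphomas, and 5 (Cs, Idh3a, Suclg1, Mdh2 and Dlat) were lower in lymphomas than after LPS. Idh3a, a subunit of isocitrate dehydrogenase, was at 15.4 ± 1.78 TPM at rest, 66.0 ± 16.8 after LPS and 34.6 ± 11.8 in lymphomas. Of 13 genes for electron carriers and their synthesis, 9 were higher and 1 lower after LPS, and 7 and 1 in lymphomas. In the ubiquinone pathway Coq7, a hydroxylase, rose by 2.11 ± 0.19 after LPS while Coq8a, an atypical kinase, fell by 2.87 on the log2 scale (limma adjusted p = 3.7e-06 and 8.2e-07).

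Of 37 tested assembly factors outside the naming rule, 18 were higher and 1 lower after LPS (Ttc19; median 0.46), and 10 were higher in lymphomas (0.29), with the copper chaperone Cox17 rising by 1.34 ± 0.18 after LPS (limma adjusted p = 5.1e-05). Of 13 genes that maintain or express mitochondrial DNA, 7 were higher and 2 (Polg2 and Mterf3) lower after LPS and 6 higher and 1 (Mterf3) lower in lymphomas, with the RNA-binding gene Slirp at 46.4 ± 5.95 TPM at rest, 181 ± 59.3 after LPS and 110 ± 33.97 in lymphomas. The 13 tested regulators of respiratory genes moved little as a list: Gabpa was higher and Ppargc1a, Foxo1 and Hif1a lower after LPS, and Gabpa and Yy1 were higher and Ppargc1a lower in lymphomas. Ppargc1a, a coactivator of mitochondrial biogenesis, was low and fell further, at 1.87 ± 0.572 TPM at rest, 0.349 ± 0.163 after LPS and 0.211 ± 0.222 in lymphomas (limma adjusted p = 0.00094 and 2.2e-06). It entered both fits through the resting samples, where it is high, so its entry and its tests rest on the same values. Its means in the other groups lay under 1 TPM, where values are imprecise.

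Of the 13 subunits encoded by mitochondrial DNA, few passed the test. After LPS mt-Nd1 and mt-Co2 were higher and mt-Nd4 lower (median log2 fold change of the 13 genes -0.04), and in lymphomas against rest mt-Co3 was higher (0.34). In lymphomas against LPS 3 were higher. Among them were mt-Co3 (0.83 ± 0.18, limma adjusted p = 0.0032) and mt-Atp8 (1.63 ± 0.54, limma adjusted p = 0.045). None of the 13 genes was lower there, and their median log2 fold change was 0.24. Their summed level was 22430 to 39640 TPM at rest, 21840 to 39380 after LPS and 29510 to 75570 in lymphomas. Set against the sum of the 93 nuclear genes in the same library, they were at 2.42 to 4.72 times at rest, 1.09 to 2.01 times after LPS and 1.41 to 6.11 times in lymphomas. LPS and resting samples did not overlap in this ratio, and the lymphomas overlapped both.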

How the data were processed

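RNA from B220-purified cells was depleted of ribosomal RNA, made into stranded libraries and sequenced from both ends, per the labels' protocols. The authors' deposited table held TPM per transcript for 88198 Ensembl transcripts. FastQC, kallisto 0.43 and the builds mm10 and GRCm38 are named in the submitters' processing notes; no label or header states the transcript annotation or the strand setting. Transcript TPM were summed to 30735 genes (361 transcripts for the members). 11 non-coding copies of members were left out, and reads of Ndufb4 and its expressed copy Ndufb4c may be shared.

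A gene entered a fit when at least 4 of its samples reached a TPM of 1. A gene high in 1 group can enter through that group alone. Tnnt3 did so when resting samples or lymphomas were compared with LPS samples. The p-value of such a gene rests on the values that admitted it. The log2 of TPM plus a pseudocount of 1 was fitted by limma 3.58.1 in R 4.3.3, with its trend and robust options and two-sided tests, with Benjamini-Hochberg adjustment over all genes tested and a threshold of 0.05; errors of fold changes are SE. This scale understates changes of low genes. Each comparison of groups used its own samples; lines and sites were fitted together, with T39 left out. Within-sample ratios were tested by permuting the samples exhaustively (difference of means, two-sided, exact), which was added after the other results were seen. The ratios were thus chosen with the changes of their genes known, and the adjustment over 15 tests does not count that choice. TPM keep no depth; whole reads were recovered for 60.7 to 75.6% of low values within 0.02 reads, so no count test was run. The test was tried on simulated data. Neighbouring genes and single low tumours were chosen after seeing values. Python 3.11.15, pandas 2.3.3, numpy 2.4.6 and matplotlib 3.10.9 were used.

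The members and lists were chosen with earlier results of these data known. Named genes were taken from the 2 highest and 2 lowest changes per complex and comparison, fixed paralogue sets, the Sdh genes, members called against the majority, the 3 with the largest SD over lymphomas at a mean of 5 TPM or more, the smallest p-values between lines or sites, and the 2 largest changes per list. Not every gene that met these rules is given with values in the text. Ndufa8, Cox7c and Cox8a are among those left out. Atp5b, Atp5l, Ndufs7, Atp5o, Timm8b, Dlat, Itgad, Ckm and the genes behind counts of 5 or fewer were named after their values were seen, and members without a promoter entry are listed by name. 1 member is in the counts and sums but is not reported here by itself. Alternatives covered the pseudocount (0.1 and 5), the filter, the scaling, a joint fit, samples left out, name styles and the genotype as a block.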

Additional observations from a re-analysis of the deposited data

Results flagged for a closer look

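In groups of 4 to 10 samples, 71 sets of values (sums per complex in 5 groups, and 18 members in resting and LPS samples) were searched for a sample far from the others by Dixon's gap test, and 7 were found. Chance gives about 1 in 20. The sets share genes and samples, so the 7 are not independent and cannot be set against that rate. The cr LPS library accounted for 5 of them as the lowest of 4 samples: the sum of complex I (3792 TPM), the sum of complex V (4745 TPM), the sum of all members (13805 TPM), Sdhb (117.7 TPM) and Ndufa12 (183.3 TPM). This is the library with 18.6% of its TPM in Gm10800, and the part of that share in the low values was not tested. Its Atp5g1 share of the c subunit, 40.2%, was close to the 40.5 to 42.4% of the other LPS samples. The lymphoma hv T8 was high among the 7 hv lymphomas in the sum of assembly factors (196.8 TPM). Cox7a1 was high in co resting cells (1.194 TPM, against 0.449 to 0.572 in the others), a difference at a low level.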

How the results depend on the processing

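The members called higher after LPS numbered 73 to 82 and those higher in lymphomas than at rest 52 to 71 over all alternatives, within 1.5 times of 77 and 68. With median-of-ratios scaling, which moved the median of all genes after LPS from -0.16 to 0.03, the members' median was 1.26, and after rescaling without dominant genes, which moved it to -0.32, 0.92. These scalings put 53.9% and 36.2% of all calls after LPS on the higher side, against 43.4%; the members' values above are relative to that shift. Without the libraries above 1% Gm10800 (wt resting, cr LPS, hv LPS and cr T6; chosen after seeing the data), calls over all genes were 2746 against 4229 for lymphomas and rest, and 433 against 1782 for lymphomas and LPS, with fewer samples (2749 without wt resting; 1103, 835 and 821 without wt, co and hv LPS), and 55.5% of calls after LPS were on the higher side; Cox7a1 did not pass the filter on low values after LPS there. The small counts moved more, and the cause was not tested. Members lower after LPS were 2, but 1 with a pseudocount of 0.1, 1 with TPM of 5 or more required, 1 after rescaling, 1 without the wt samples, 1 without the Gm10800 libraries, and 0 with no filter, with median-of-ratios scaling and with 1 fit over all samples; leaving out single samples gave 0 to 2. Members lower in lymphomas than at rest were 1, and 0 with TPM of 5 or more required and with joined sample names alone; leaving out single samples gave 0 to 1. Members higher in lymphomas than after LPS were 2, but 1 with median-of-ratios scaling, 1 with joined names and 0 without the Gm10800 libraries; leaving out single samples gave 0 to 2. Members lower in lymphomas than after LPS were 7, but 11 after rescaling, 13 with 1 fit over all samples, 2 without the wt samples, 1 without the Gm10800 libraries and 4 with separated names; leaving out single samples gave 0 to 10. No named member that was called changed its sign. Between lines and sites no alternative called a member. With the genotype as a replicate block, 77 members were higher and 2 lower after LPS, as without it; samples of 1 genotype correlated at 0.0585, 0.222, 0.34 and 0.063 (wt, cr, co, hv) in their deviations from the group means, so the genotypes do not pair the samples in all 4 cases. Depths of 11500000 to 32000000 read pairs leave values under 1 TPM imprecise.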
